A study of Homo sapiens with 12 samples.

Results

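The genes described here are 10 components and targets of YAP-TEAD signaling, found by their symbols among the 39368 genes of the count tables for CAL27 and HSC3 cells. They are the coactivators YAP1 and WWTR1 (which encodes TAZ), the DNA-binding partners TEAD1 and TEAD4, the target genes CCN1, CCN2 and ANKRD1, and AMOTL2, AJUBA and LATS2, which are targets that also act back on the pathway. The set was chosen by CCN1, which was 4.08-fold higher with doxycycline (DOX) in HSC3 cells, so the changes of these genes in HSC3 cells are given as a description with no test, and the DOX changes of these genes are tested in CAL27 only. All 10 genes passed the filter on low counts in both lines. On GRCh38 (GENCODE v44), the coactivator genes lie at chr11:102110447-102233424 (YAP1, plus strand) and chr3:149517235-149736714 (WWTR1, minus), and the TEAD genes at chr11:12674421-12944737 (TEAD1, plus) and chr12:2959330-3040676 (TEAD4, plus). The target genes lie at chr1:85580761-85584589 (CCN1, plus), chr6:131948176-131951372 (CCN2, minus) and chr10:90912096-90921087 (ANKRD1, minus), and the regulators at chr3:134355347-134375479 (AMOTL2, minus), chr14:22971177-22982551 (AJUBA, minus) and chr13:20973036-21061586 (LATS2, minus).

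CAL27 and HSC3 are established HPV-negative human head and neck squamous carcinoma lines. CAL27 was cultured in DMEM and HSC3 in minimum essential medium, so differences between the lines cannot be told apart from those of the media. The cells of all 4 groups carried a tetracycline-inducible shRNA against MUC1 (tet-MUC1shRNA) in a puromycin-selected lentiviral vector, and polyA RNA was sequenced after 7 days in 0.1% DMSO (vehicle) or 500 ng/ml DOX, with 3 cultures per group and 12 libraries in all. The control groups differ from the silenced ones in DOX itself as well as in the shRNA it induces. No scrambled-shRNA library was analysed here, so the effects of DOX and of MUC1 loss cannot be told apart. Total counts were 92866845 to 126328662 in CAL27 and 89730914 to 169065103 in HSC3 libraries.

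One library stood furthest apart. HSC3 DOX replicate 1 held counts for 19128 genes, against 19699 and 20910 in the other two HSC3 DOX libraries, and 9.63% of its counts were mitochondrial, against 8.74% and 7.58%. The mitochondrial share also moved with the HSC3 groups, since the vehicle libraries held 5.98%, 6.51% and 5.94%, all below the DOX libraries, whereas CAL27 vehicle (6.39 to 7.82%) and DOX libraries (6.43 to 8.23%) overlapped. The part of this share in the HSC3 values was not tested. The chi-square per degree of freedom of HSC3 DOX replicate 1 against the other two was 141 and 90.9, whereas they differed from each other by 23.2, and the HSC3 changes of the 10 genes are given with and without it. Of the HSC3 changes of other pathway genes named here, leaving it out ended no call, but the log2 fold change moved from 0.32 to 0.20 for VGLL3, from 0.55 to 0.43 for STK3 and from 0.06 to -0.006 for NT5E, which did not pass either way. In CAL27, DOX column 6 had a chi-square per degree of freedom of 31.4 and 29.5 against the other DOX libraries, which differed from each other by 9.34. Its mitochondrial share was 8.23%, against 6.97% and 6.43%. All 9 markers of squamous epithelium lay above 1 CPM in every library. Their summed level was 6520 to 6810 CPM in CAL27 vehicle and 3180 to 3420 CPM in CAL27 DOX libraries, and 6450 to 7240 against 3090 to 3660 CPM in HSC3, with KRT5 the most abundant. Not every marker was lower with DOX. EPCAM averaged 124 CPM in vehicle and 164 CPM in DOX libraries of CAL27, and 55.7 and 102 CPM in HSC3. The means of CDH1 were 291 and 299 CPM in CAL27 and 171 and 169 CPM in HSC3, and those of SFN 223 and 227 CPM in CAL27 and 598 and 492 CPM in HSC3. The summed marker levels were lower in the same DOX libraries in which most YAP-TEAD genes were higher, and their part in the results was not tested. Lists for fibroblasts, leukocytes and endothelium summed to at most 14.1, 5.26 and 15.3 CPM in any library, led by COL1A1, CD14 and CDH5, and the fibroblast gene COL3A1 was at 0 counts in all libraries. With DOX, COL1A1 was higher in HSC3 (log2 fold change 0.73). In CAL27, CDH5 (-0.55), COL1A2 (-0.54), LUM (-1.97), PDGFRB (-1.02) and VWF (-0.99) were lower with DOX. The part of these markers in the results was not tested.

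The shRNA target fell in both lines. MUC1 was 58.4, 53.1 and 54.4 CPM in CAL27 vehicle libraries and 2.92, 2.76 and 3.25 CPM with DOX, a log2 fold change of -4.21 ± 0.067 (SE; edgeR quasi-likelihood test, adjusted p = 1.6e-19). HSC3 cells held less MUC1, with 1.66, 1.97 and 1.64 CPM in vehicle and 0.310, 0.267 and 0.132 CPM in DOX libraries (log2 fold change -2.88 ± 0.38, adjusted p = 2e-04; -3.12 without HSC3 DOX replicate 1).

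YAP and TAZ bind no DNA themselves. They enter the nucleus when the Hippo kinases are inactive and act through the TEAD factors, which recognize a short GGAATG element and often work beside AP-1. LATS kinases phosphorylate YAP and TAZ and hold them in the cytoplasm, angiomotin-family proteins bind them there, and several of these inhibitors are YAP-TEAD targets. In squamous epithelium the pathway responds to cell density, stretch and adhesion. Transcript levels do not report where the YAP and TAZ proteins are in the cell.

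RefSeq promoter windows of the GRCh38.p14 build were held for 7 of the 10 genes, in 10 windows, with none for CCN1, TEAD1 and TEAD4. The 250 bases before each start were searched on both strands for the TEAD element GGAATG, which reads CATTCC in reverse complement, and for the AP-1 element TGANTCA, and no match of the one overlapped a match of the other. At least 1 GGAATG was found in 1 window each of 5 genes (YAP1, CCN2, ANKRD1, AMOTL2 and AJUBA), out of the 10 windows. The share among all 35116 windows of that length was 11.9%. The CCN2 window held 3 (0.0826% of all windows held as many or more), at 169, 104 and 95 bases before the start. The ANKRD1 window held 2 (0.94% held as many or more), at 220 and 128 bases, and the AP-1 letters TGATTCA at 195 bases (6.57% of windows have such letters). Of the 10 genes, CCN2 and ANKRD1 are the targets whose levels moved most beside CCN1. They are printed here with AMOTL2, whose second window holds the element once, reversed, at 69 bases. Capitals mark GGAATG or CATTCC, and each sequence reads toward the gene start on the minus strand, at chr6:131951373-131951622, chr10:90921088-90921337 and chr3:134374448-134374697. A match is a run of letters and not a binding site.
CCN2: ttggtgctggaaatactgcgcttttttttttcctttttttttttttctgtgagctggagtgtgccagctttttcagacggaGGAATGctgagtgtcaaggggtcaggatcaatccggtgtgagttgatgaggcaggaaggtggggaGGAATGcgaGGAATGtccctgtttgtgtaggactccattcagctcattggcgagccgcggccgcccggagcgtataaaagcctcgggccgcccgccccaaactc
ANKRD1: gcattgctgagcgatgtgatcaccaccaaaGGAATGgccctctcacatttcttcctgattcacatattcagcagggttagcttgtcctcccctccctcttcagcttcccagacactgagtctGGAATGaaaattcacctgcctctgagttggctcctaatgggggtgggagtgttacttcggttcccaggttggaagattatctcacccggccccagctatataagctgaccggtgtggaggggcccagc
AMOTL2: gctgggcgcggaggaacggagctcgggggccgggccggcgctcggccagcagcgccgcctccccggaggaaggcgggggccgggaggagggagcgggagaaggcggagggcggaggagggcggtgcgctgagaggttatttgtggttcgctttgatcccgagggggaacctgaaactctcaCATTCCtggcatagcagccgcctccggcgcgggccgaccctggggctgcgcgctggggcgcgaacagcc

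All 10 genes passed the test as higher with DOX in CAL27 cells (edgeR quasi-likelihood test, adjusted p under 0.05), against 22.6% of the 19239 genes tested, and 3 of them, CCN1, CCN2 and ANKRD1, rose more than 2-fold, against 1.31%. The rule did not use the CAL27 libraries, but the set was proposed with results of these data known, so the count is not independent evidence. The median log2 fold change of the 10 genes was 0.52, where the median over all genes tested was -0.0052. For all 10, every DOX library lay above every vehicle library, as it did for 25.9% of genes. In HSC3 cells 7 of the 10 had all DOX libraries above all vehicle libraries (20.2% of genes), YAP1 and TEAD4 overlapped, and AJUBA was below in every DOX library (22.5% of genes). The HSC3 median was 0.48, against -0.0097 over all genes, and since CCN1 in that contrast chose the set nothing is read from these shares. All CPM values are scaled with TMM over the 12 libraries.

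**Figure D1:**
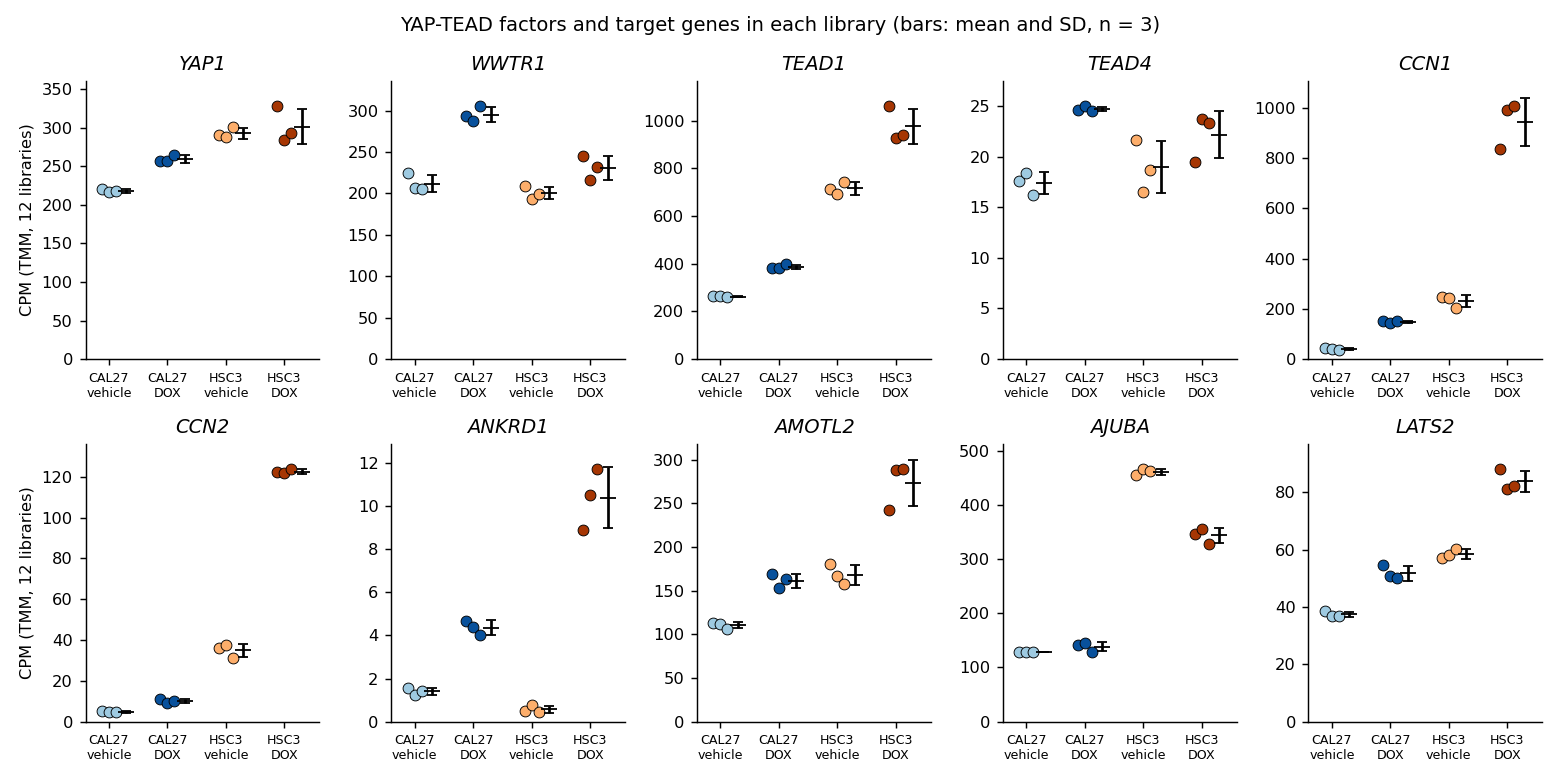
Normalized level in CPM (linear axes from 0) of the 10 genes in each of the 12 libraries, in 4 groups of 3 points, with the group mean and SD beside them. DOX libraries lie above vehicle libraries in every CAL27 panel, by the least in AJUBA (128.7 against 128.6 CPM), and AJUBA is the only panel in which all HSC3 DOX libraries lie below all HSC3 vehicle libraries.

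Both coactivators rose with DOX in CAL27. YAP1 was 221, 216 and 218 CPM in CAL27 vehicle libraries and 258, 257 and 266 CPM with DOX. This was a 1.19-fold rise (log2 fold change 0.25 ± 0.036, adjusted p = 1.1e-05). In HSC3 it was 290.4, 288 and 301 CPM in vehicle and 328, 285 and 293 CPM in DOX libraries. The HSC3 groups overlapped, with HSC3 DOX replicate 1 the highest, and the log2 fold change of 0.04 ± 0.064 turned to -0.02 ± 0.047 without that library. WWTR1 was 224, 206 and 205 CPM in CAL27 vehicle and 293, 287 and 305 CPM in CAL27 DOX libraries, a 1.39-fold rise (log2 0.48 ± 0.041, adjusted p = 8.7e-09). In HSC3 the WWTR1 level was 209, 194 and 199 CPM in vehicle and 245, 216 and 232 CPM in DOX libraries, with a log2 difference of 0.20 ± 0.064 (0.16 without HSC3 DOX replicate 1). TAZ mRNA was thus higher in every DOX library of both lines, by less in HSC3 (difference between lines -0.28 ± 0.08 on the log2 scale). Exons of YAP1 (10.1%) and WWTR1 (9.1%) lie under genes of the opposite strand, and the strand setting of the counting is not given in the sources used here; WWTR1-AS1 itself had 0 to 117 counts in any library, against 15915 or more for WWTR1.

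TEAD1, a DNA-binding factor of the pathway, was more abundant per kb of exon than TEAD4 in both lines. Its level was 263, 264 and 259 CPM in CAL27 vehicle libraries and 380.2, 379.9 and 397 CPM with DOX. The rise was 1.47-fold (log2 0.56 ± 0.038, adjusted p = 2.5e-10). In HSC3 it stood at 714, 691 and 741 CPM in vehicle and 1060, 925 and 941 CPM in DOX libraries, a log2 difference of 0.44 ± 0.065 (0.39 without HSC3 DOX replicate 1). TEAD4, the second DNA-binding member, was 17.6, 18.4 and 16.2 CPM in CAL27 vehicle and 24.7, 25 and 24.6 CPM in CAL27 DOX libraries, a 1.42-fold rise (log2 0.50 ± 0.058, adjusted p = 5.2e-07). In HSC3 the TEAD4 libraries overlapped, with 21.6, 16.5 and 18.7 CPM in vehicle and 19.5, 23.7 and 23.3 CPM in DOX. The HSC3 log2 difference was 0.22 ± 0.12, and 0.31 ± 0.1 without HSC3 DOX replicate 1, the lowest of its group, but 0.13 without HSC3 vehicle replicate 2.

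The secreted matricellular proteins CCN1 and CCN2 are the best known YAP-TEAD readouts, and both were higher in every DOX library. CCN1 was 42.3, 41.3 and 37.1 CPM in CAL27 vehicle libraries and 153, 145 and 149.9 CPM with DOX. It rose 3.7-fold (log2 1.89 ± 0.047, adjusted p = 1.8e-16), the 35th largest of the 4351 rises that passed in CAL27. In HSC3 it was 246, 242 and 205 CPM in vehicle and 835, 993 and 1006 CPM in DOX libraries, and this difference of 2.03 ± 0.095 on the log2 scale is what selected the set (2.12 without HSC3 DOX replicate 1). The log2 changes of CCN1 in the lines thus differed by 0.14 ± 0.11, or by 0.25 ± 0.086 without HSC3 DOX replicate 1 and 0.08 without HSC3 vehicle replicate 3, from vehicle levels that were far apart. CCN2 was 5.13, 4.52 and 4.74 CPM in CAL27 vehicle and 11.1, 8.97 and 10.3 CPM in CAL27 DOX libraries. The rise was 2.1-fold (log2 1.07 ± 0.089, adjusted p = 5.8e-09). In HSC3 CCN2 was 36.1, 37.5 and 31.4 CPM in vehicle and 122.2, 121.7 and 123.8 CPM in DOX libraries, a log2 difference of 1.81 ± 0.078 (also 1.81 without HSC3 DOX replicate 1), which exceeded that of CAL27 by 0.74 ± 0.12. LINC01013 lies across 11.9% of CCN2 exon sequence on the opposite strand and had at most 2 counts in any library.

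ANKRD1, an ankyrin repeat protein often read as a YAP reporter gene, was the least abundant of the 10 per kb of exon and showed the widest gap among them between the DOX responses of the lines. It was 1.56, 1.23 and 1.44 CPM in CAL27 vehicle libraries (133 to 215 counts) and 4.69, 4.38 and 4.01 CPM with DOX (452 to 516 counts). The rise was 3.07-fold (log2 1.62 ± 0.13, adjusted p = 2.5e-09). In HSC3 it was 0.486, 0.778 and 0.469 CPM in vehicle (56 to 64 counts) and 8.90, 10.5 and 11.7 CPM in DOX libraries (1320 to 1418 counts). ANKRD1 was therefore lower than in CAL27 in HSC3 vehicle libraries and higher than in CAL27 in HSC3 DOX libraries, with no overlap either way. The HSC3 difference was 18.2-fold (log2 4.19 ± 0.23, and 4.29 without HSC3 DOX replicate 1), and it exceeded the CAL27 change by 2.57 ± 0.26 on the log2 scale.

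Among the genes that act back on the pathway, AMOTL2 and LATS2 were higher with DOX in both lines and AJUBA was not. AMOTL2, an angiomotin-like protein that binds YAP, was 113, 112 and 106 CPM in CAL27 vehicle and 169, 153 and 163 CPM in CAL27 DOX libraries (log2 0.54 ± 0.041, adjusted p = 1.5e-09). In HSC3 it was 181, 166 and 158 CPM in vehicle and 243, 288 and 289 CPM in DOX libraries, a log2 difference of 0.70 ± 0.084 (0.78 without HSC3 DOX replicate 1). LATS2, the kinase that phosphorylates YAP and TAZ, was 38.6, 36.9 and 36.8 CPM in CAL27 vehicle and 54.8, 50.7 and 49.96 CPM in CAL27 DOX libraries (log2 0.47 ± 0.046, adjusted p = 5.5e-08). In HSC3 LATS2 was 57.2, 58.0 and 60.3 CPM in vehicle and 88.1, 81.3 and 82.3 CPM in DOX libraries (log2 0.52 ± 0.066, and 0.48 without HSC3 DOX replicate 1). The changes in the lines differed by 0.15 ± 0.1 for AMOTL2 and 0.05 ± 0.08 for LATS2 on the log2 scale. Without HSC3 DOX replicate 1 these differences were 0.25 ± 0.071 and 0.04 ± 0.069, and without 1 CAL27 DOX library that of LATS2 was 0.11 ± 0.081.

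AJUBA, a LIM-domain protein of cell junctions that binds and restrains LATS kinases, was nearly level in CAL27. It was 127.8, 128.6 and 128.3 CPM in CAL27 vehicle and 141.7, 145.3 and 128.7 CPM in CAL27 DOX libraries. The 1.08-fold rise sat at the threshold (log2 0.11 ± 0.044, adjusted p = 0.049). The log2 fold change ranged from 0.07 (without CAL27 DOX column 5) to 0.16 (without column 6) as each CAL27 library was left out in turn. The call was lost when any of 5 of the 6 CAL27 libraries was left out and under 5 of 7 other settings, with adjusted p from 0.00037 to 0.28 over all of them. The settings include a threshold of 0.01 in the same fit, under which the loss was fixed in advance. In HSC3 AJUBA was lower in every DOX library, with 455, 466 and 462 CPM in vehicle and 346, 356 and 329 CPM in DOX. The HSC3 log2 difference was -0.43 ± 0.057, or 0.743-fold (also -0.43 without HSC3 DOX replicate 1), and it lay 0.54 below that of CAL27 (-0.54 ± 0.072).

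**Figure D2:**
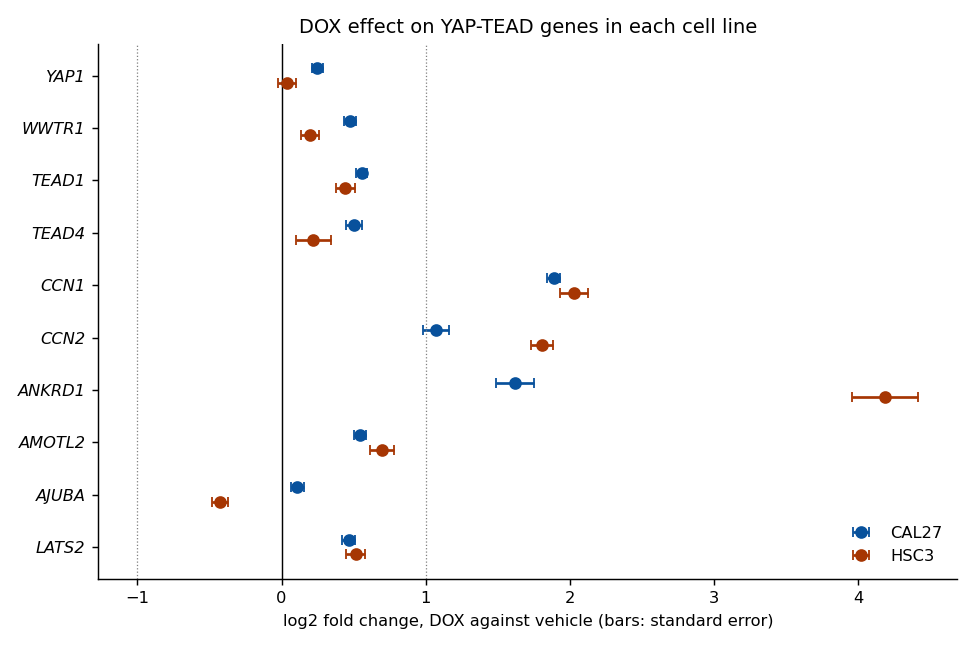
Log2 fold change of each gene, DOX against vehicle, with its standard error, in CAL27 (blue) and HSC3 (brown), with dotted lines at a change of 2-fold. CCN1, CCN2 and ANKRD1 lie past 2-fold in both lines, ANKRD1 reaches 4.19 in HSC3, and AJUBA is the only gene below 0, at -0.43 in HSC3.

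In vehicle-treated cells, 6 of the 9 genes other than CCN1 were higher in HSC3 than in CAL27 (30.6% of the 20694 genes tested were), and 1, ANKRD1, was lower (32.3% were). Tests were made in a fit of all 12 libraries. Line, culture medium and preparation cannot be told apart in this comparison. CCN2 differed most, 7.28-fold higher in HSC3 (log2 2.86 ± 0.09, adjusted p = 3.6e-13), followed by AJUBA at 3.59-fold (log2 1.85 ± 0.053, adjusted p = 1.3e-13) and TEAD1 at 2.73-fold (log2 1.45 ± 0.055, adjusted p = 2.9e-12). LATS2, AMOTL2 and YAP1 were 1.56-fold, 1.52-fold and 1.34-fold higher, with adjusted p of 6.7e-08, 1.8e-06 and 3.5e-06. Their log2 differences of 0.64, 0.61 and 0.42 were 0.37, 0.34 and 0.15 with library totals in place of TMM, where they still passed. ANKRD1 was at 0.402 of its CAL27 level (log2 -1.31 ± 0.2, adjusted p = 2.7e-05). CCN1, given with no test, was 5.73-fold higher. These values share the vehicle libraries with the DOX comparisons above. The median over all genes was -0.12 with TMM and -0.388 with library totals alone. WWTR1 (log2 -0.08 ± 0.057, adjusted p = 0.24) and TEAD4 (0.12 ± 0.1, adjusted p = 0.31) did not pass, and with library totals WWTR1 did (-0.35, adjusted p = 1.4e-05) while TEAD4 turned to -0.15. WWTR1 also passed as lower among genes averaging a log2 CPM of 3 or more (-0.27, adjusted p = 0.00049). No other of these calls changed with library totals. Leaving out each library in turn gave log2 differences of -0.12 to -0.051 for WWTR1 and 0.007 to 0.208 for TEAD4.

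Levels of different genes were compared as CPM per kb of exon (GENCODE v44). In CAL27 vehicle cells YAP1 led with 34.6 ± 0.37 CPM per kb (SD, n = 3), followed by WWTR1 (25.3) and TEAD1 (24.5), whose ranges overlapped, and by AJUBA (21.8), AMOTL2 (17.1), CCN1 (10.9), TEAD4 (7.66), LATS2 (6.67), CCN2 (2.05) and ANKRD1 (0.788). With DOX, CCN1 reached 40.3 ± 1.05 CPM per kb in CAL27, and its range overlapped that of YAP1 (41.2 ± 0.78). In HSC3 vehicle cells AJUBA led with 78.3 ± 0.97 CPM per kb, above TEAD1 (66.8) and CCN1 (62.4), which overlapped, and YAP1 (46.5). With DOX, CCN1 stood at 255 ± 25.7 CPM per kb in HSC3, above TEAD1 (91.2 ± 6.85), AJUBA (58.4 ± 2.37) and CCN2 (52.4 ± 0.48). The order depends on the length used. Per kb of the longest transcript, WWTR1 (42.0 CPM per kb in CAL27 vehicle cells) ranked 1st in both CAL27 groups in place of YAP1.

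**Figure D3:**
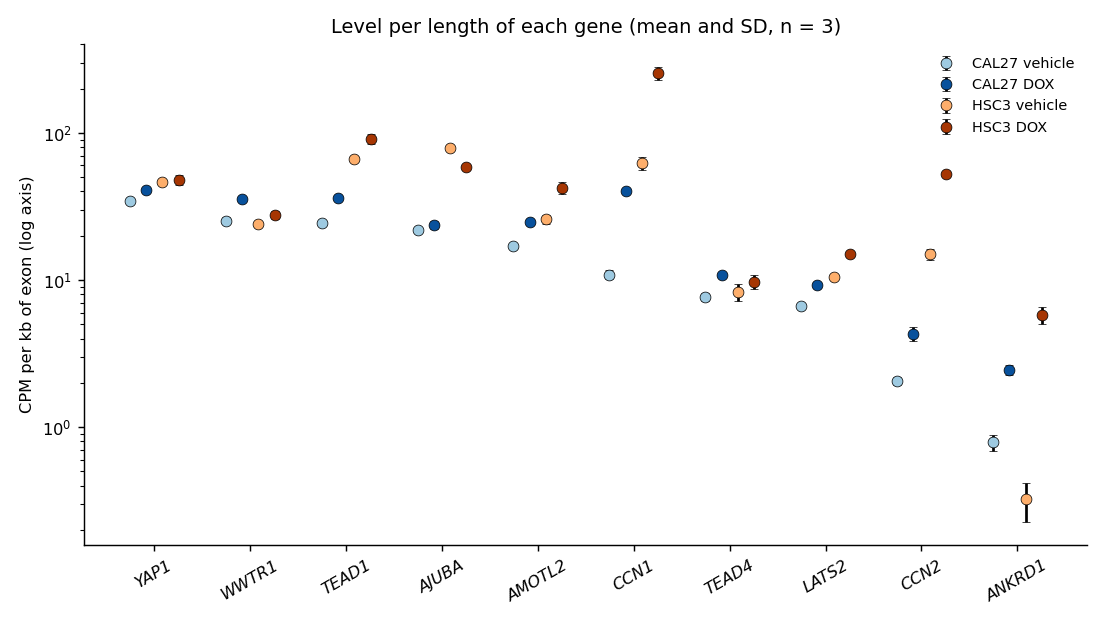
Level of each gene in CPM per kb of exon on a log axis, as mean and SD of 3 libraries, for the 4 groups, with genes in the order of CAL27 vehicle cells. CCN1 in HSC3 DOX cells is the highest point at 255 CPM per kb, and ANKRD1 in HSC3 vehicle cells the lowest at 0.323.

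The further YAP/TAZ targets moved in both directions. Of 17 such genes tested in CAL27, 10 rose and 4 fell (backgrounds 22.6% and 21.8%), with a median log2 fold change of 0.27. NT5E, the surface enzyme CD73, rose most, from 73.3 to 83.0 CPM in vehicle to 251 to 284 CPM with DOX (log2 1.79 ± 0.049, adjusted p = 4.1e-15). F3, tissue factor, rose from 484 to 558 CPM up to 1289 to 1401 CPM (log2 1.34 ± 0.053, adjusted p = 1.2e-12), and the receptor kinase AXL by 0.62 ± 0.054. IGFBP3, PTPN14 and CCDC80 fell by 0.84, 0.54 and 0.53 on the log2 scale in CAL27. PTPN14 is a phosphatase that restrains YAP, and IGFBP3 binds insulin-like growth factors.

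In HSC3, 6 of the same 17 rose and 5 fell (backgrounds 13.0% and 15.4% of 18021 genes), with a median of 0.06. TGFB2, a TGF-beta ligand, rose from 14.4 to 15.8 CPM up to 35.9 to 40.6 CPM (log2 1.38 ± 0.09, adjusted p = 1.5e-06), the membrane-repair protein MYOF by 0.84 ± 0.053 and the RNA-binding protein RBMS3 by 0.57 ± 0.11. IGFBP3 and PTPN14 fell by 1.19 and 0.77 on the log2 scale, as in CAL27 in direction, and AXL fell by 0.44 (adjusted p = 0.00027). NT5E, at 1319 to 1405 CPM in HSC3 vehicle and 1304 to 1543 CPM in HSC3 DOX libraries, did not pass (log2 0.06 ± 0.068, adjusted p = 0.61). The interaction test found a higher log2 fold change in HSC3 for 5 of the 17 and a lower one for 6, against 8.25% and 12.3% of 20694 genes. NT5E differed most (difference -1.73, adjusted p = 2.9e-08), then F3 (-1.12, adjusted p = 1.2e-06) and AXL (-1.05, adjusted p = 8.4e-07), all with the lower value in HSC3.

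Upstream Hippo regulators included genes that rose in both lines. In CAL27 12 of 21 rose and 4 fell, with a median of 0.18 (backgrounds 22.6% and 21.8%), and in HSC3 8 of 21 rose and 1, the atypical cadherin FAT1, fell, with a median of 0.15 (backgrounds 13.0% and 15.4%). NF2, whose product merlin brings LATS kinases to the membrane, was 138 to 142 CPM in CAL27 vehicle and 248 to 256 CPM in CAL27 DOX libraries, and 286 to 322 against 487 to 594 CPM in HSC3. Its log2 fold changes were 0.84 ± 0.037 (adjusted p = 3.9e-13) and 0.89 ± 0.085 (adjusted p = 2.2e-05). WWC1, the scaffold KIBRA that acts beside merlin, rose by 0.92 ± 0.046 in CAL27 and 0.85 ± 0.075 in HSC3. FRMD6, a FERM-domain protein, rose by 0.46 ± 0.038 in CAL27 (adjusted p = 4.9e-09) and 0.86 ± 0.059 in HSC3 (adjusted p = 2.2e-06). The cadherin FAT4 rose by 0.79 ± 0.072 in CAL27 and 0.60 ± 0.083 in HSC3 (adjusted p = 0.00029). FAT1 fell by 0.43 in CAL27 and 0.37 in HSC3, and the polarity protein CRB3 by 0.23 in CAL27. The CRB3 call was lost under 4 of 13 alternative settings (adjusted p up to 0.53). AMOT, named after its values were seen, was 6.91 to 7.803 CPM in CAL27 vehicle and 2.41 to 2.696 CPM in CAL27 DOX libraries (log2 -1.51 ± 0.098, adjusted p = 1.4e-10) and was at 0 counts in all HSC3 libraries.

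Of 6 core kinase-module genes, 3 rose and 1 fell in CAL27 (backgrounds 22.6% and 21.8%), and 2 rose and 2 fell in HSC3 (backgrounds 13.0% and 15.4%). STK3, the kinase MST2, rose by 0.45 ± 0.042 (adjusted p = 2.6e-08) and 0.55 ± 0.089 (adjusted p = 0.00086). The adaptor SAV1 rose by 0.20 ± 0.065 in CAL27 and 0.77 ± 0.063 in HSC3 (difference 0.57, adjusted p = 0.00084). The LATS cofactor MOB1B rose by 0.13 ± 0.045 in CAL27. In CAL27 the MOB1B call was lost under 7 of 13 alternative settings (adjusted p up to 0.26) and the SAV1 call under 6 (up to 0.094). LATS1 fell by 0.20 in CAL27 and 0.37 in HSC3, whereas its paralog LATS2, above, was higher in every DOX library of both lines. STK4, the kinase MST1, fell by 0.26 in HSC3 (adjusted p = 0.017), a call lost under 4 of 14 alternative settings (adjusted p up to 0.094). In HSC3 the kinase, upstream and partner lists together held 3 genes that fell, or 6 without HSC3 DOX replicate 1, where the share of all genes that fell was also larger (19.3% against 15.4%).

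Among the other TEAD and Vestigial-like genes, 2 of 6 rose in CAL27 (background 22.6%) and 3 of 5 tested rose in HSC3 (background 13.0%). VGLL1, an epithelial cofactor that binds TEAD in place of YAP, was 7.99 to 8.60 CPM in HSC3 vehicle and 28.6 to 32.2 CPM in HSC3 DOX libraries (log2 1.87 ± 0.097, adjusted p = 3.5e-07). In CAL27 it was 0.870 to 1.04 CPM in vehicle and 0.714 to 0.927 CPM in DOX libraries (98 to 126 and 86 to 97 counts), with a log2 fold change of -0.19 ± 0.2 that did not pass. Leaving out each CAL27 library in turn gave -0.281 to -0.091 for VGLL1. The difference between lines was 2.07 (adjusted p = 6.2e-07). TEAD3 rose by 0.17 ± 0.051 in CAL27 and 0.37 ± 0.1 in HSC3, and VGLL3 by 0.17 ± 0.048 and 0.32 ± 0.1. The TEAD3 call was lost under 6 of 13 alternative settings in CAL27 (adjusted p up to 0.18) and 6 of 14 in HSC3 (up to 0.08). The VGLL3 call was lost under 1 of 13 in CAL27 (adjusted p = 0.2 with all 12 libraries in the fit) and 4 of 14 in HSC3 (up to 0.15).

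**Figure D4:**
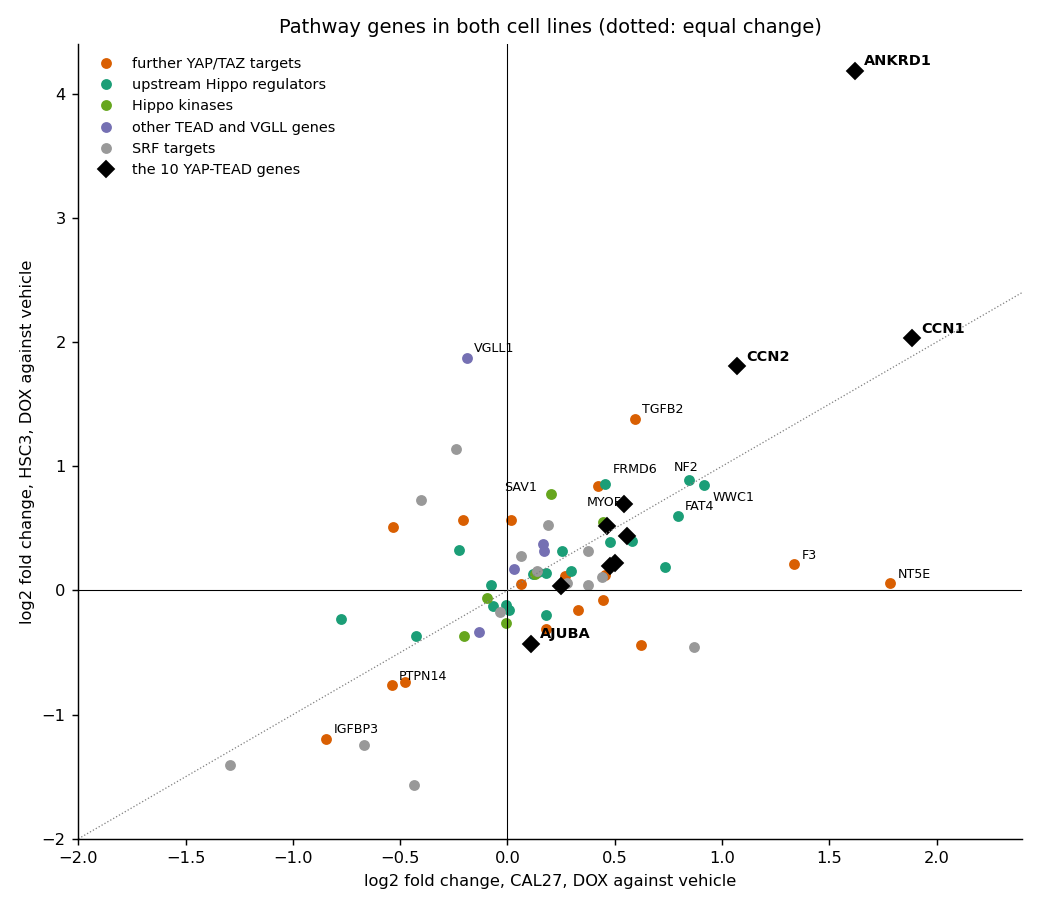
Log2 fold change with DOX in CAL27 (horizontal axis) and HSC3 (vertical axis) for the 10 YAP-TEAD genes (black diamonds) and the listed pathway and SRF target genes tested in both lines (coloured points), with the dotted line marking equal change. CCN1 lies near the line at 1.89 and 2.03, ANKRD1 far above it at 1.62 and 4.19, and NT5E far below it at 1.79 and 0.06.

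Among the remaining CCN genes, CCN3 in HSC3 was the one that passed. In CAL27, where 22.6% of all genes passed as higher and 21.8% as lower, the 3 that could be tested did not pass (CCN3 log2 -0.11 ± 0.062, CCN5 0.19 ± 0.32 and CCN6 -0.18 ± 0.075, adjusted p of 0.15, 0.67 and 0.053). CCN3 passed as lower among genes averaging a log2 CPM of 3 or more (adjusted p = 0.036), and CCN6 under 3 of 13 alternative settings (adjusted p from 0.01). In HSC3 (13.0% and 15.4% of all genes) CCN3, a matricellular relative of CCN1, was 1.32 to 2.36 CPM in vehicle and 0.768 to 1.17 CPM in DOX libraries and fell by 1.07 on the log2 scale (adjusted p = 0.022), a call lost under 5 of 13 alternative settings, the replicate block among them (adjusted p = 0.057, and up to 0.12 over all). CCN5 (-0.62 ± 0.49) and CCN6 (-0.34 ± 0.13) did not pass in HSC3, though CCN6 did as lower with all 12 libraries in the fit (adjusted p = 0.024). CCN4 had 18 to 28 counts in HSC3 vehicle libraries, 26 in HSC3 DOX replicate 3 and 0 in the other DOX libraries, and it passed as lower when replicate 3 was left out (adjusted p = 0.018) but not with it. Targets of SRF, the actin-responsive factor that shares targets such as CCN1 with YAP-TEAD, were mixed, with 7 of 14 higher and 4 lower in CAL27 (backgrounds 22.6% and 21.8%) and 3 of 14 higher and 2 lower in HSC3 (backgrounds 13.0% and 15.4%). Without HSC3 DOX replicate 1, the HSC3 counts were 7 higher and 3 lower, with 17.5% and 19.3% of all genes. TPM1, a tropomyosin, fell by 0.24 in CAL27 and rose by 1.14 ± 0.056 in HSC3 (difference 1.38, adjusted p = 9.6e-09). FHL2, VCL and ACTB rose in CAL27 by 0.44, 0.38 and 0.37 on the log2 scale and MYL9 fell by 0.67 (adjusted p = 0.11 with all 12 libraries in the fit), while CNN2 and VCL rose in HSC3 by 0.53 and 0.32 and FHL1 and TGFB1I1 fell by 1.57 and 1.40.

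Over the 12 libraries, the genes most like CCN1 in log2 CPM were NF2 (Pearson r = 0.997), IRS2 (0.996), SRPRA (0.995), EIF2AK4 (0.995) and RBMS2 (0.993) (9233 genes whose log2 CPM averaged 3 or more were compared). These points share cell line and DOX group, and the values are a description of those libraries. Of the YAP-TEAD genes, LATS2 (r = 0.990, rank 10) and AMOTL2 (0.987, rank 19) came closest to CCN1, ahead of CCN2 (0.969, rank 121) and TEAD1 (0.946, rank 321). YAP1, AJUBA, TEAD4 and WWTR1 ranked 1037, 2950, 4259 and 5253, and ANKRD1 fell short of the level required and was not ranked. In bulk RNA, fewer cells that carry a transcript and less transcript per cell cannot be told apart for any of these values.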

How the data were processed

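RNA from tet-MUC1shRNA cells of the CAL27 and HSC3 lines was sequenced from TruSeq Stranded mRNA libraries. Per the submitters' processing notes, FastQC 0.11.9, STAR 2.7.9a, Subread 2.0.1 and featureCounts were used with GRCh38. The methods name the genome as GRCh38.74, which carries a release number, without naming the annotation used for counting. The strand setting and treatment of duplicates are not given in the sources used here. The authors deposited raw counts per gene in 1 table per line, each with 39368 genes. CAL27 DOX columns carry the numbers 4 to 6, which are not the replicate numbers of the labels, so they were used as group columns. Odd values were 32.2 to 35.7% of the counts from 1 to 19 in CAL27 and 22.1 to 25.7% in HSC3 libraries. These shares lie below an even split, and the cause was not tested.

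Each line was fitted alone with edgeR 4.0.16 in R 4.3.3 (TMM, filterByExpr with a minimum count of 10 and total of 15, robust quasi-likelihood F test, Benjamini-Hochberg adjustment over all genes tested). The difference between lines and the vehicle comparison came from 1 fit of all 12 libraries. A gene passed at adjusted p under 0.05, and FC above 2 was counted apart. DESeq2 1.42.0, other scalings, filters, thresholds and left-out libraries were alternatives. Scripts were tested on simulated data. The SE was derived from the log2 fold change and the F statistic. The p-values cover only the spread of 3 cultures per group.

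The members and gene lists were chosen with earlier results of these data known. Listed genes were named as up to 3 largest rises and falls per list and line among genes averaging a log2 CPM of 3 or more, plus all CCN genes and the 5 genes most correlated with CCN1. VGLL2, AMOT, DCHS1, CCN4 and CNN1 fell under the count filter in at least 1 line. Promoter letters and gene models came from RefSeq (GRCh38.p14) and GENCODE v44.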

Additional observations from a re-analysis of the deposited data

Results flagged for a closer look

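Several pathway genes differed in their log2 fold change between CAL27 and HSC3 by the interaction test of the 12-library fit (edgeR quasi-likelihood test, adjusted over 20694 genes). Each value is the log2 fold change in HSC3 minus that in CAL27, so a negative value can be a smaller rise or a larger fall. The log2 fold change was higher in HSC3 for VGLL1 (2.07, adjusted p = 6.2e-07), TPM1 (1.38, adjusted p = 9.6e-09), CCDC80 (1.04, adjusted p = 2.2e-05), TGFB2 (0.79, adjusted p = 1.2e-05) and RBMS3 (0.78, adjusted p = 0.0019). It was also higher for SAV1 (0.57, adjusted p = 0.00084), MYOF (0.42, adjusted p = 0.00011), FRMD6 (0.40, adjusted p = 0.00055) and CNN2 (0.34, adjusted p = 0.025). The log2 fold change was lower in HSC3 for NT5E (-1.73, adjusted p = 2.9e-08), FHL1 (-1.13, adjusted p = 1.3e-05), F3 (-1.12, adjusted p = 1.2e-06) and AXL (-1.05, adjusted p = 8.4e-07). It was lower as well for CCN3 (-0.96, adjusted p = 0.014), FHL2 (-0.34, adjusted p = 0.011), ACTB (-0.33, adjusted p = 0.005) and STK4 (-0.25, adjusted p = 0.037). STK4 lost its call under 12 of 16 alternative settings, 10 of them left-out libraries (adjusted p up to 0.14). CNN2 lost its call without HSC3 DOX replicate 2 or replicate 3, and CCN3 without HSC3 vehicle replicate 1 (-0.761, adjusted p = 0.052).

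AJUBA was lower in every HSC3 DOX library than in every HSC3 vehicle library and was nearly level in CAL27. There every DOX library lay above every vehicle library, but the lowest DOX value was 128.7 CPM against 128.6 CPM in vehicle. The CAL27 call (edgeR quasi-likelihood test, adjusted p = 0.049) was lost under 10 of 13 alternative settings. The difference of -0.54 on the log2 scale was not tested, because the HSC3 contrast chose the set.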

How the results depend on the processing

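For the 10 YAP-TEAD genes, 118 of 128 CAL27 values under an alternative kept their direction and their side of the threshold, and the 10 exceptions were AJUBA. All 139 untested HSC3 values moved by less than the spread between replicates, and YAP1 alone changed sign there (-0.021 without HSC3 DOX replicate 1). A mean log2 CPM of 3 or more left out ANKRD1, and CCN2 in CAL27. In the vehicle comparison TEAD4 turned to -0.147 with library totals, a scaling under which the median over all genes went from -0.118 to -0.388. With a mean log2 CPM of 3 or more TEAD4 turned to -0.069, and the cause of that was not tested. Among genes that did not pass, leaving out each library gave -0.006 (without HSC3 DOX replicate 1) to 0.108 for NT5E in HSC3 and -0.2 to 0.466 for CCN5 in CAL27, on the log2 scale. CCN5 in HSC3 ranged from -0.963 to -0.43, and CCN4 there, with 0 counts in all but 1 DOX library, passed only when that library was left out. Of the untested differences between lines, LATS2 moved to 0.106 without 1 CAL27 DOX library and ANKRD1 to 2.812 without HSC3 vehicle replicate 2.

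Fold thresholds can only lower counts, by construction. With FC above 1.5 in CAL27, 714 genes were higher and 1848 lower, among them 3 members higher, 4 further targets higher and 1 lower, and 4 Hippo and TEAD partner genes higher and 2 lower. With FC above 2 these were 252 and 984 genes, 3 members, 2 and 0 further targets, and 0 and 1 Hippo and partner genes. In HSC3 the counts were 798 and 1514 genes at 1.5 (2 and 3 further targets, 6 and 0 Hippo and partner genes) and 284 and 793 at 2 (1 and 1 targets, 1 and 0 Hippo and partner genes). Differences between lines past 2-fold numbered 454 with the log2 fold change higher and 624 with it lower in HSC3, with 1 and 3 further targets and 1 and 1 Hippo and partner genes, and vehicle differences past 2-fold numbered 2730 higher and 3862 lower in HSC3, with 3 members higher and 1, ANKRD1, lower, leaving CCN1 aside. Adjusted p under 0.01 left 1400 genes higher in HSC3.

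One fit over 12 libraries gave 2746 genes higher and 2337 lower in CAL27, with 11 and 3 Hippo and partner genes, and 5 such genes lower in HSC3. All genes lower with DOX in HSC3 numbered 2782, and 793 to 3836 over the alternatives that kept every library. Hippo and partner genes with a lower log2 fold change in HSC3 numbered 5, or 3 with DESeq2 size factors (2547 and 2422 of all genes). With a mean log2 CPM of 3 or more they numbered 2. That filter left 3784 genes higher and 3842 lower in the vehicle comparison, with fewer genes tested. With library totals 2 members other than CCN1 (ANKRD1 and WWTR1) were lower in HSC3 in the vehicle comparison. Of the 20694 genes tested, 8601 were lower with that scaling, against 6679 with TMM. Scaling by library totals moved the split of HSC3 calls from 45.7% higher to 41.4%, and of vehicle calls from 48.7% to 35.7%.

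Leaving out each library in turn gave 1514 to 3268 genes higher in HSC3 (fewest without vehicle replicate 2) and 2 to 6 Hippo and partner genes lower there (6 without DOX replicate 1). Genes with a higher log2 fold change in HSC3 numbered 1336 to 2614 (2614 without HSC3 DOX replicate 1), Hippo and partner genes among them 3 to 5, and those with a lower one 2 to 6.

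With the replicate block in HSC3, 1955 genes were higher and 2523 lower, 5 and 5 of them further targets, and of the calls of the named HSC3 genes it ended that of CCN3 alone (adjusted p = 0.057). The labels do not say whether a number marks a shared batch. Deviations of vehicle and DOX libraries of the same number correlated at -0.199, 0.346 and -0.336 over 9273 genes. Only number 2 correlated best with its own. Each deviation was taken from the mean of its group, so the correlations are tied to each other and cannot decide this. CAL27 could not be fitted with a block, because its DOX columns carry no replicate number of the labels.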
